A study of Mus musculus with 5 samples.

Results

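The cells described here are CD3-negative innate lymphoid-like cells, a rare population in libraries made from splenic CD4 T cells, most of them cocultured with fibroblasts. Whether the spleen or the tumor preparation brought them in was not tested. Of 25623 cell barcodes in 5 mouse libraries, 61 were chosen by their RNA. A chosen barcode held 3000 or more unique molecular identifiers (UMIs, one per captured RNA molecule) and 300 or more genes, with no more than 10% of UMIs from mitochondrial genes. It held 0 UMIs of the CD3 chains Cd3d and Cd3e, of the myeloid gene Lyz2 and of the B cell gene Cd79a. It also held a UMI of at least 2 of 5 genes: the NK-type receptor Klrb1b, the adaptor Clnk, the IL-23 receptor Il23r, the adhesion gene Dscam and the IL-2 receptor chain Il2ra. These 9 genes chose the barcodes, so their values below are description.

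Innate lymphoid cells and natural killer (NK) cells are lymphocytes that carry no rearranged antigen receptor and respond to cytokines and to activating receptors. NK cells and group 1 innate lymphoid cells (ILC1) depend on Tbx21, and NK cells also on Eomes. Group 3 cells (ILC3) read IL-23 and IL-1 and can make IL-22. Lymphoid tissue inducer (LTi) cells belong to the group 3 family, and in mouse spleen many of them carry CD4 without CD3. Group 2 cells (ILC2) depend on Gata3 and make IL-5 and IL-13.

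The labels list 5 groups of 1 sample each. They are OT-II cells cocultured overnight with antigen-presenting cancer-associated fibroblasts (apCAFs) of the mouse pancreatic tumor clone sKPC with OVA or with DMSO, the same with clone rKPC, and OT-II cells alone. OT-II mice carry a transgenic CD4 T cell receptor for an ovalbumin peptide; in all groups the T cells were splenic, naive and taken by negative selection, and the apCAFs were sorted from tumors. The 2 count matrices carried 3 and 2 library suffixes, whereas the labels tie 2 and 3 samples to them, so no library could be assigned to a group. The libraries are named Ga, Gb, Gc, Ha and Hb and are given as single values, and no treatment, clone or coculture effect was tested. The 2 matrices were aggregated separately, which touches every level set across Ga to Gc and Ha to Hb.

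The 61 barcodes lay in all 5 libraries, with 16 (Ga), 14 (Gb), 11 (Gc), 8 (Ha) and 12 (Hb). Their share of the barcodes passing the UMI, gene and mitochondrial limits was 0.315% for Ga, 0.473% for Gb, 0.178% for Gc, 0.202% for Ha and 0.319% for Hb. Over all libraries it was 0.278% (exact Clopper-Pearson 95% interval 0.213 to 0.357, n = 21937 barcodes). The intervals of the highest and lowest libraries, 0.259 to 0.793 (Gb) and 0.089 to 0.319 (Gc), overlapped. Innate lymphoid barcodes held 4498, 13531 and 24633 UMIs (lowest, median, highest), and CD3-positive barcodes a median of 8509.5 UMIs. They held a median of 4173 genes, against 2905 in CD3-positive barcodes, and a median of 1.95% mitochondrial UMIs, against 1.94%. Library pairs shared 2 to 14 barcode sequences, and 1 of the 61 had a sequence that occurred in another library.

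Barcodes near the limit of the rule are described by genes that it did not use. Among 310 CD3-negative barcodes, 12 held exactly 2 of the 5 genes, 13 held 3, 11 held 4 and 25 held all 5, while 94 held exactly 1 and 155 held none. Just inside the limit, 11 of the 12 barcodes held a UMI of Fcer1g and 8 held Id2. Just outside it, 13 of 94 held Fcer1g and 22 held Id2, and the 1 rule gene held was Il2ra in 81 of the 94. The T lineage factor Bcl11b was held by 2 of 12 barcodes just inside the limit, against 62 of 94 just outside. Themis was held by 1 of 12 against 36 of 94, Cd3g by 1 of 12 against 31 of 94 and Cd4 by 0 of 12 against 21 of 94. Lef1 and Cd247 showed no such gap: Lef1 was held by 9 of 12 against 60 of 94, and Cd247 by 9 of 12 against 63 of 94.

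The label of NK or innate lymphoid cells was checked against marker lists of genes outside the rule. Levels are UMIs summed over barcodes and scaled to counts per 1000000 UMIs (CPM), with exact 95% Poisson intervals that cover counting error only. Ratios are log2 of innate lymphoid over CD3-positive barcodes (n = 20402) with 0.5 UMI added. A gene with at least 30 UMIs in both populations together was called higher or lower at 4-fold. Of 17238 such genes, 5.11% were at least 4-fold higher with at least 10 UMIs in innate lymphoid barcodes, and 3.54% were at least 4-fold lower. The 10-UMI limit was added after seeing the data, and without it 12.0% were higher. Because the rule split the barcodes on this same contrast, the counts that follow carry no test.

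The genes common to innate lymphocytes were held broadly: 12 of 13 in this list occurred in at least 20% of the 61 barcodes. Fcer1g (ENSMUSG00000058715, GRCm38 chromosome 1, 171229572 to 171234365), the signaling chain of activating NK and Fc receptors, was held by 59 of 61 innate lymphoid barcodes with 13 UMIs at the median and 60 at most. Thinned to 3000 UMIs, 50 barcodes still held it. Its level was 1168 CPM (1095 to 1244), against 7.68 CPM in CD3-positive barcodes, of which 2.31% held it. By library, the Fcer1g level of innate lymphoid barcodes was 1129 (Ga), 1269 (Gb), 1101 (Gc), 970 (Ha) and 1275 (Hb) CPM, against 5.73 to 10.3 CPM in the CD3-positive barcodes of the same libraries, with no overlap. Id2, the factor that all helper-like innate lymphocytes require, was held by 53 of 61, at 650.1 CPM against 34.2 CPM. Rora was held by 57 of 61, at 1762 CPM against 106 CPM. Of the 13 shared innate lymphoid genes, 7 were at least 4-fold higher and none lower, with a median log2 ratio of 3.65, against 0.32 over all genes tested. Il7r, which marks helper-like innate cells and resting T cells alike, was not among the 7 and stood at 684 CPM, against 822 CPM in CD3-positive barcodes.

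NK and ILC1 genes were high, and single genes differed in how many barcodes held them. Of 15 NK genes, 12 were at least 4-fold higher and none lower, and 6 were held by at least 20% of the 61 barcodes. A UMI of any NK gene was held by 58 of 61, most often of Il2rb, the IL-2 and IL-15 receptor beta chain, which 55 held at 518 CPM against 39.5 CPM in CD3-positive barcodes. The activating receptor Klrk1 was held by 32 of 61. The activating receptor Ncr1 (ENSMUSG00000062524, chromosome 7, 4337724 to 4345164) is a surface receptor of mouse NK cells and ILC1. It was held by 21 of 61 at 80.1 CPM (61.9 to 102), against 0.39 CPM in CD3-positive barcodes. Eomes was held by 10 of 61 at 32.7 CPM against 5.78 CPM, and Tbx21 by 15 of 61 at 80.1 CPM against 9.55 CPM. The cytotoxic granule genes were sparse: Gzmb had 0 UMIs, for which the limit of 3 counts allows a share of barcodes with a UMI of up to 4.92%, Prf1 was held by 7 of 61 and Gzma by 6. Of 9 ILC1 genes, 7 were higher, among them the chemokine receptor Cxcr6 (43 of 61), the integrin Itga1 (10 of 61) and the death ligand Tnfsf10 (15 of 61). The IL-21 receptor Il21r was at least 4-fold lower, at 18.2 CPM against 77.1 CPM.

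Genes of ILC3 and LTi cells were also high. Of 20 genes, 19 had enough UMIs, 11 were at least 4-fold higher and none was lower, and 12 were held by at least 20% of the barcodes. The stem cell factor receptor Kit was held by 42 of 61 at 268 CPM (234 to 306), against 4.5 CPM in CD3-positive barcodes. The RANK receptor Tnfrsf11a was held by 23 at 95.8 CPM against 0.881 CPM, and the OX40 ligand Tnfsf4 by 19 at 205 CPM against 2.61 CPM. The chemokine receptor Ccr6 was held by 15 at 76.4 CPM against 1.3 CPM. Il17a had 0 UMIs in innate lymphoid and in CD3-positive barcodes. ILC2 genes were sparse: Il13, Il5, Calca, Nmur1 and Rxrg had 0 UMIs, Il1rl1 was held by 1 barcode, and 1 of 10 genes with enough UMIs, Ccr8, was called higher. Gata3 stood at 78.8 CPM against 46.6 CPM.

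**Figure D1:**
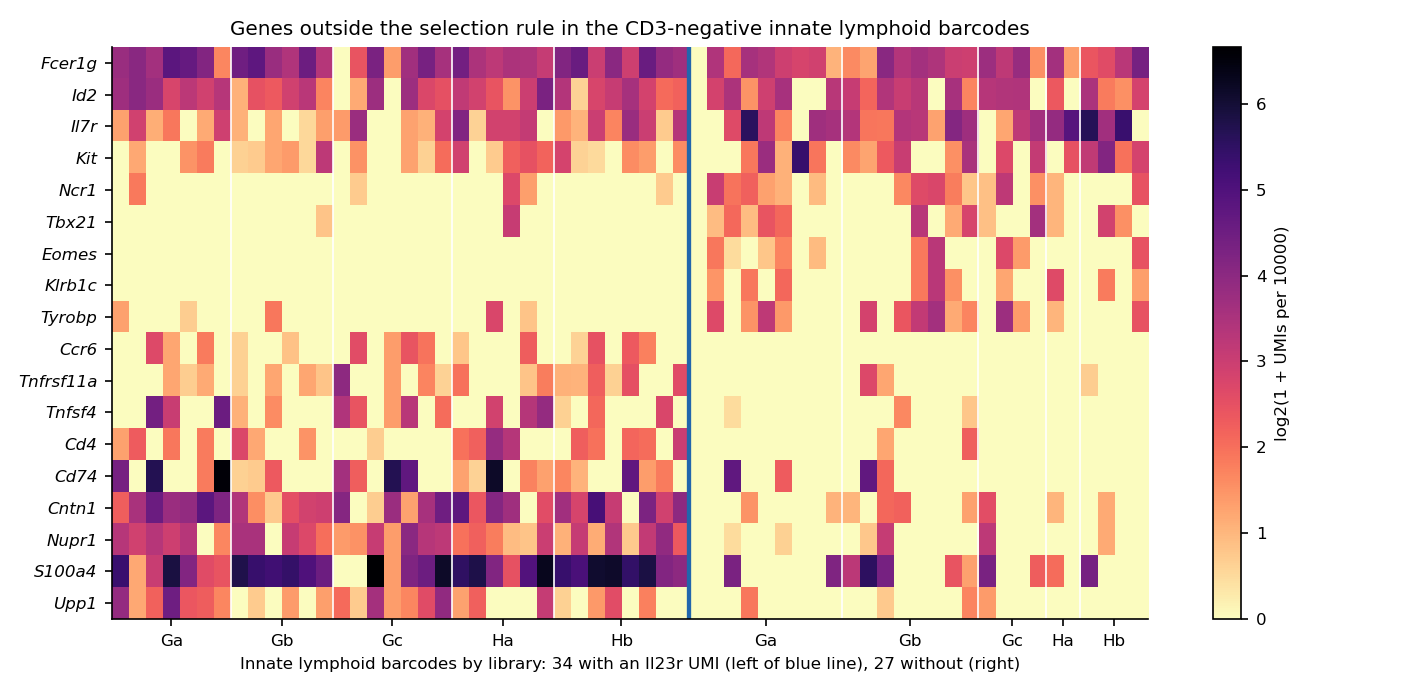
Genes outside the selection rule (rows) in the 61 innate lymphoid barcodes (columns, grouped by library), as log2 of 1 plus UMIs per 10000. Fcer1g and Id2 run through nearly all columns, whereas Ccr6 lies only among the 34 barcodes with an Il23r UMI, left of the blue line, and Eomes and Klrb1c only among the 27 without one.

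The heatmap separates the barcodes on the rule gene Il23r, a division made after the values were seen and therefore given without a test. The 34 barcodes with an Il23r UMI held a median of 15719.5 UMIs and the 27 without one a median of 10993, and the part of depth in the shares below was not tested. The barcodes with Il23r numbered 7, 6, 7, 6 and 8 (Ga, Gb, Gc, Ha, Hb), and those without it 9, 8, 4, 2 and 4 in the same order. At least 1 UMI of Ncr1, Eomes, Klrb1c or Tbx21 was held by 6 of 34 barcodes with Il23r and by 19 of 27 without. At least 2 of these NK and ILC1 genes were held by 1 of 34 and by 16 of 27.

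Several group 3 genes were held more often with Il23r. All 15 barcodes with Ccr6 and all 8 with the effector cytokine Il22 were among the 34, and the set without Il23r had 0 UMIs of each. The IL-1 receptor Il1r1 was held by 24 of 34 at 158 CPM (125 to 196), against 2 of 27 at 9.67 CPM (1.99 to 28.3). Tnfrsf11a was held by 20 of 34 and 3 of 27. The colony-stimulating factor Csf2 was held by 21 of 34 at 210 CPM, against 1 of 27 at 29 CPM. Cd4, whose transcript LTi cells of mouse spleen often carry, was held by 17 of 34 at 212 CPM (174 to 256), against 2 of 27 at 22.6 CPM (9.07 to 46.5), and its level in CD3-positive barcodes was 202 CPM. Of the 19 barcodes with Cd4, 8 also held Ccr6 and none held Eomes or Klrb1c. Other genes of the ILC3 and LTi list did not follow Il23r. Kit stood at 165 CPM (132 to 204) with it, against 438 CPM (368 to 519) without. A single Ga barcode held 27 of the 136 Kit UMIs without Il23r. The lymphotoxin gene Ltb stood at 307 CPM against 426 CPM, Tmem176b at 212 CPM against 229 CPM and the aryl hydrocarbon receptor Ahr at 40.8 CPM against 41.9 CPM.

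Several NK and ILC1 genes were held more often without Il23r. Ncr1 was held by 5 of 34 barcodes with Il23r at 23.3 CPM (12.1 to 40.8), and by 16 of 27 without at 174 CPM (131 to 227). Eomes and Klrb1c, the NK1.1 antigen, were each held by none of 34 and by 10 of 27. The NK receptors Klrd1 and Klrk1 were held by 3 and 10 of 34, against 19 and 22 of 27. The chemokine Ccl5 was held by 4 of 34, against 15 of 27, and Itga1 by 1 of 34, against 9 of 27. The adaptor Tyrobp, which pairs with NK receptors, was held by 5 of 34 at 33.1 CPM, against 14 of 27 at 235 CPM. Of the 10 barcodes with Eomes, 9 also held Ncr1, 6 held Klrb1c and none held Ccr6. Ncr1 and Ccr6 occurred together in 2 barcodes. In the same lists, Cxcr6 was held by 30 of 34 at 229 CPM (189.9 to 275), against 13 of 27 at 171 CPM (128 to 223), and the receptor Cd200r1 by 17 of 34 at 95.3 CPM, against 5 of 27 at 58 CPM. The NK receptor Cd244a was held by 15 of 34 at 50.6 CPM, against 10 of 27 at 113 CPM.

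The shared innate genes varied. Fcer1g was held by 33 of 34 and 26 of 27, but its level was 1437 CPM (1335 to 1545) with Il23r and 722 CPM (631 to 823) without. Il7r was held by 28 of 34 and 22 of 27. Cd7, a surface protein of NK and T cells, was held by 8 of 34 at 23.3 CPM with Il23r and by 14 of 27 at 377 CPM without. Zbtb16 was held by 3 of 34 at 9.72 CPM and by 9 of 27 at 145 CPM. Without Il23r, single barcodes held 42 of the 117 Cd7 UMIs and 22 of the 45 Zbtb16 UMIs. The IL-2 receptor beta chain Il2rb stood at 521 CPM (461 to 587) with Il23r and 513 CPM (436 to 599) without. Il7r was higher without Il23r, at 366 CPM with it against 1212 CPM without, a gap wider than its counting intervals. The calcium-binding protein gene S100a4 was held by 32 of 34 with a median of 52.5 UMIs, against 11 of 27 with a median of 0.

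**Figure D2:**
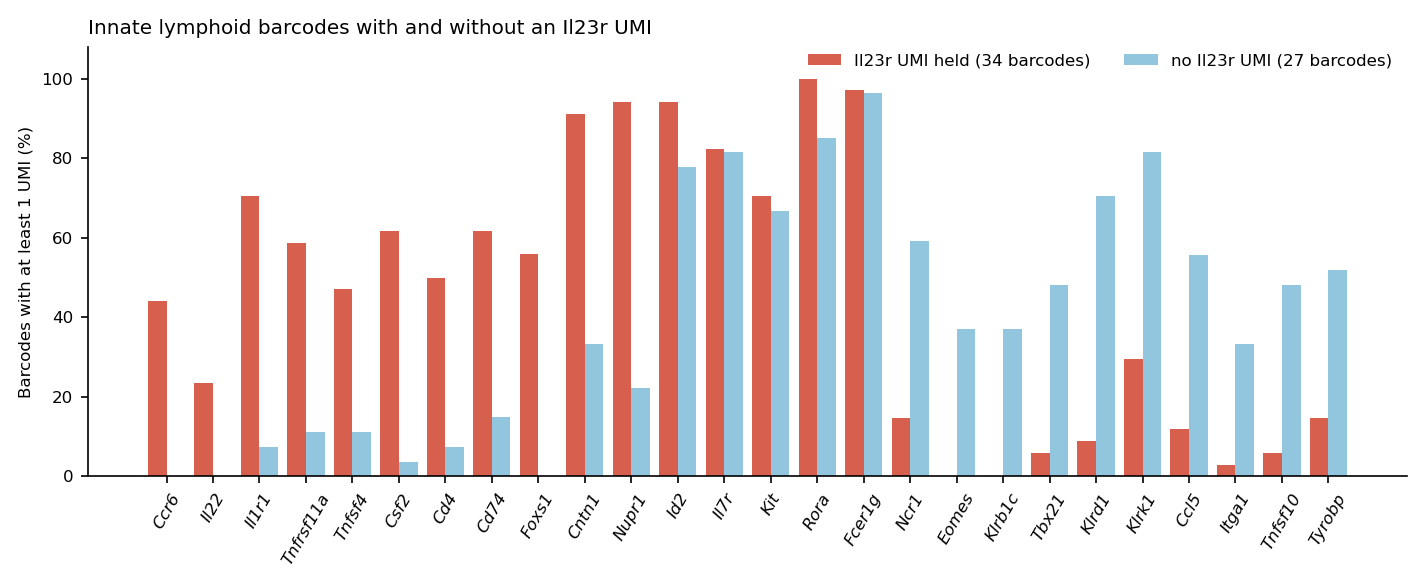
Share of barcodes with at least 1 UMI of each gene (percent, bars from 0) in innate lymphoid barcodes with an Il23r UMI (red, n = 34) and without one (blue, n = 27). Genes with the taller red bar stand on the left, group 3 genes among them. Il7r, Kit and Fcer1g stand in the middle with bars of like height. NK and ILC1 genes stand on the right, each with the taller blue bar.

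Klrb1b was held by 59 of the 61 barcodes, and the 2 without it carried genes of other cell types. The one in Gb (14494 UMIs) held 37 UMIs of Fscn1, 37 of Ccr7, 36 of Cd74, 16 of Zbtb46, 10 of Flt3 and 4 of Ccl22, which are genes of migratory dendritic cells. It held all Fscn1 and Flt3 UMIs of the 61 and 57.8% of their Ccr7 UMIs, but 0 UMIs of the class II gene H2-Ab1. The one in Ga (6654 UMIs) held 27 UMIs of Kit, 10 of Cpa3 and 4 of Csf3r, which are genes of mast cell, basophil and granulocyte precursors, and the lowest Trac count, 6. Of other genes in the lists of those cells, the Ga barcode held 1 UMI of Hdc and 0 of Gata2, Mpo and Elane. Both barcodes without Klrb1b met the rule through Dscam and Il2ra. Of the 59 with Klrb1b, 1 barcode in Ga (9869 UMIs) held 1 UMI of it, 12 of Il2ra and 0 of Fcer1g, Id2, Il7r, Kit, Ncr1 and Tyrobp. This barcode and the 2 without Klrb1b held 0 UMIs of Il23r, so they enter the values given above without Il23r. In that set the Gb barcode held 8 of the 11 Tnfrsf11a UMIs and 66 of the 233 S100a4 UMIs. With only the 59 barcodes that held Klrb1b, 57 held Fcer1g, and 6 NK genes were held by at least 20%.

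The 30 genes named for the highest ratios over CD3-positive barcodes were led by Sh2d1b1, whose product is the NK adaptor EAT-2. It was held by 19 of 61 innate lymphoid barcodes with 3 UMIs at most, at 29.1 CPM (18.7 to 43.3), against 9 UMIs and 0.048 CPM in CD3-positive barcodes. The membrane chemokine Cx3cl1 was held by 19 at 61.9 CPM against 0.149 CPM, and the transcription factor Batf3 by 20 at 98.2 CPM against 0.294 CPM. The uridine phosphorylase Upp1, a label marker outside the rule, was held by 28 at 243 CPM (210.1 to 279), against 0.955 CPM, a log2 ratio of 7.99 (7.69 to 8.29). One barcode held 24.0% of its UMIs. The neuronal adhesion gene Cntn1 was held by 40 at 688 CPM against 3.09 CPM. The olfactory receptor genes Olfr1259 and Olfr1258, both on chromosome 2, were held by 29 and 17 barcodes, at 227 and 57 CPM against 0.651 and 0.203 CPM; reads could be shared between members of this gene family, so their split is uncertain. Shares were lower at equal depth but kept the gap: thinned to 3000 UMIs, Cntn1 was held by 30 of 61, against 0.167% of CD3-positive barcodes.

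Several of these genes lay mostly in the Il23r set. Cntn1 was held by 31 of 34 with Il23r, against 9 of 27 without. The stress-response gene Nupr1 was held by 32 of 34, against 6 of 27, Cx3cl1 by 18 of 34 against 1 of 27, and Upp1 by 24 of 34 against 4 of 27. The forkhead gene Foxs1 was held by 19 of 34 and none of 27, and the potassium channel gene Kcnk1 by 25 of 34 and none of 27. Ncr1, also among the 30, ran the other way, and Sh2d1b1 was held by 7 of 34 and 12 of 27. The kinase gene Mapk10 was held by 19 of 34 with Il23r at 626 CPM, against 2 of 27 without at 145 CPM. A single barcode held 39 of the 45 Mapk10 UMIs without Il23r.

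**Figure D3:**
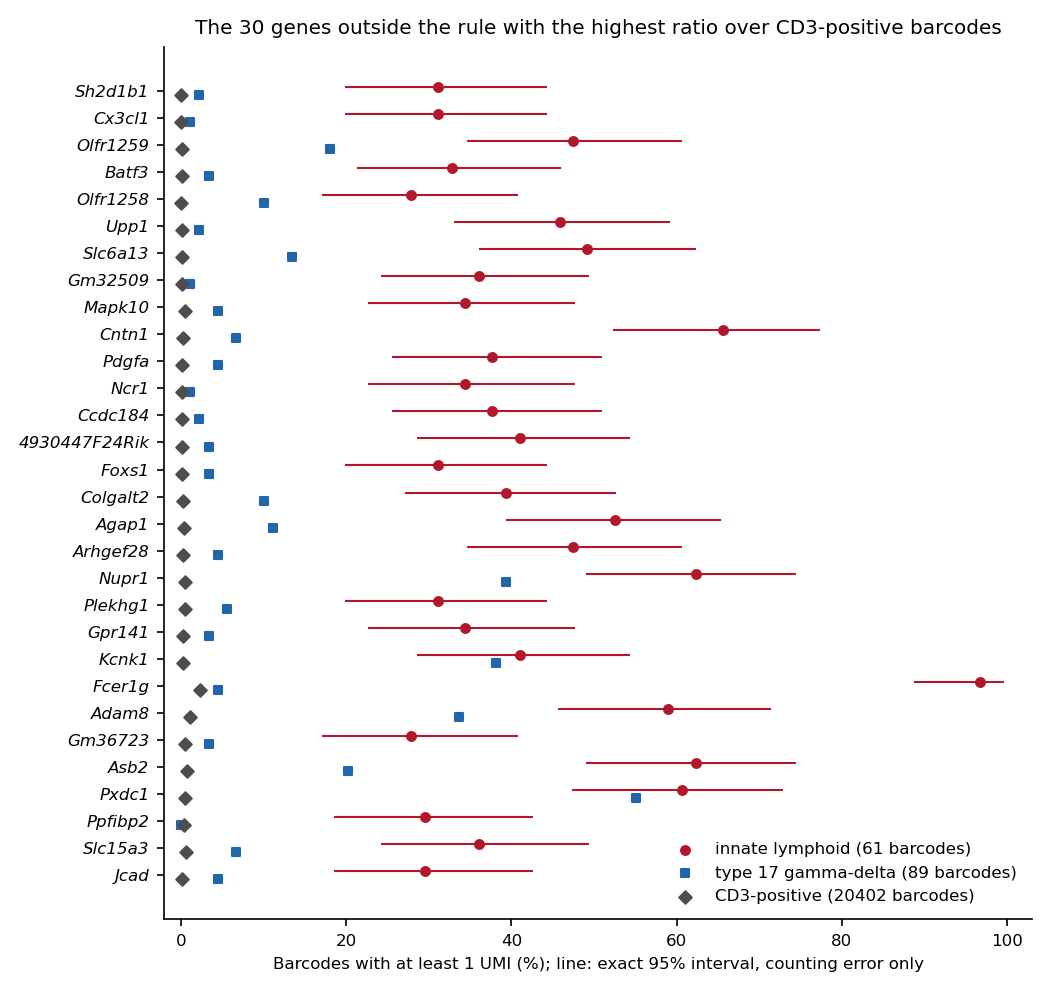
Share of barcodes with a UMI (percent) for the 30 genes outside the rule with the highest ratio, in innate lymphoid barcodes (red circles with exact 95% intervals), type 17 gamma-delta barcodes (blue squares) and CD3-positive barcodes (grey diamonds). CD3-positive shares lie at or below 2.31%, while innate lymphoid shares run from 27.9% to 96.7%, and Kcnk1, Pxdc1 and Nupr1 are also frequent in type 17 gamma-delta barcodes.

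T lineage genes were low. Of 18 T genes outside the rule, 11 were at least 4-fold lower and none higher, with a median log2 ratio of -2.59. One of the 11, Cd8b1, had 0 UMIs against 7.66 CPM, which makes it at least 2.11-fold lower. Cd3g, the CD3 chain the rule did not use, had 2 UMIs in 2 innate lymphoid barcodes, against 90% of CD3-positive barcodes, a log2 ratio of -6.87 (-10.24 to -5.34). The lineage factor Bcl11b was held by 7 of 61 with 19 UMIs in all, against 95.1% and 693 CPM in CD3-positive barcodes. The selection factor Themis was held by 6 of 61, against 90.9%, and 1 barcode held both. Among 17931 barcodes with both genes in the whole series, 111 had 0 UMIs of Cd3d and Cd3e, or 0.619% (0.51 to 0.745). Rapgef4, Lrig1, Nsg2 and Tdrp, among the 10 genes named for the lowest ratios, had 0 UMIs. Against the limit of 3 UMIs over all 61 barcodes, they were at least 42.7-fold, 37.6-fold, 20.9-fold and 20.2-fold lower. The sialyltransferase gene St8sia6 had 1 UMI, against 452 CPM and 70.2% of CD3-positive barcodes. Cd8a and the regulatory T cell factor Foxp3 also had 0 UMIs.

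Transcripts of the receptor constant genes did not follow the CD3 genes. Trac (ENSMUSG00000076928, chromosome 14, 54220521 to 54224206), the constant gene of the T cell receptor alpha chain, was present in every innate lymphoid barcode, with 6, 155 and 661 UMIs (lowest, median, highest). Its level was 14063 CPM (13808 to 14321), against 6226 CPM in CD3-positive barcodes with a median of 51 UMIs. For Ga, Gb, Gc, Ha and Hb it stood at 13647, 14411, 9343, 14342 and 17238 CPM, against 7658, 6681, 3819, 7369 and 6783 CPM in CD3-positive barcodes. It was higher in innate lymphoid barcodes of each library, and Gc was lowest in both populations. The 19 erythroid barcodes held 0 Trac UMIs at the median and 2 at most, 33.9 CPM in all, below the lowest innate lymphoid barcode. In 28 B cell barcodes, Trac stood at 5342 CPM with a median of 41.5 UMIs.

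The make-up of these transcripts also differed from that of T cells. Trbc2, a constant gene of the beta chain, stood at 9.5 UMIs per 100 Trac UMIs in innate lymphoid barcodes, against 8.85 in B cell barcodes, 15.2 in type 17 gamma-delta barcodes and 41.1 in CD3-positive barcodes. Trbc1 stood at 1.03 per 100 Trac UMIs, against 0.0922 in B cell barcodes and 8.71 in CD3-positive barcodes. Variable segments of the alpha chain were held by 2 of 61 innate lymphoid barcodes, or 3.28% (0.4 to 11.3), against 30.3% of CD3-positive barcodes. Variable segments of the beta chain were held by 16 of 61, against 38.5%, and Trbv12 segments by 12 of 61, against 24.5%. Delta chain segments were held by 19 of 61, against 9.63% of CD3-positive barcodes, and Trdc by 8 of 61, against 21.1%. The source of the Trac UMIs was not tested.

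**Figure D4:**
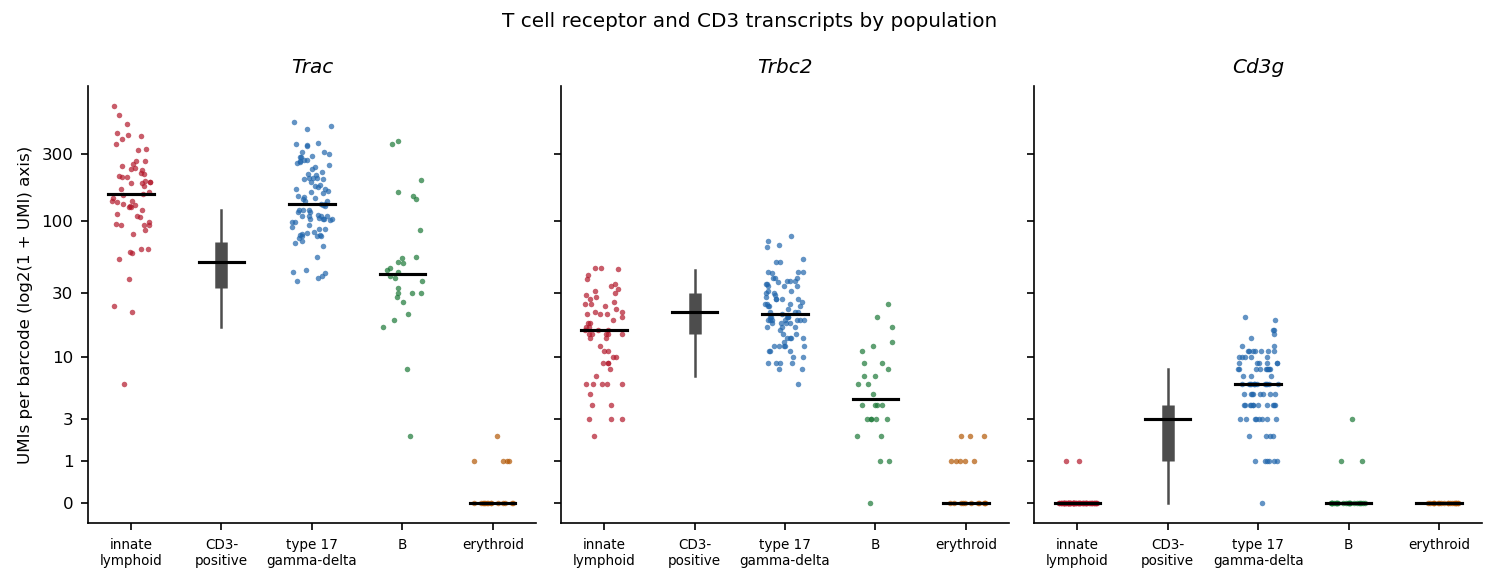
UMIs per barcode (log2 of 1 plus UMIs) of Trac, Trbc2 and Cd3g in innate lymphoid, CD3-positive, type 17 gamma-delta, B cell and erythroid barcodes. Points are barcodes, black lines medians, and the grey bar and line for CD3-positive barcodes span the quartiles and the 5th to 95th percentiles; innate lymphoid barcodes reach a median of 155 Trac UMIs with 0 of Cd3g, and erythroid barcodes lie at or near 0 for all genes.

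Signaling genes downstream of antigen receptors were split between families. Of 16 genes, 6 were at least 4-fold higher and 5 at least 4-fold lower, with a median log2 ratio of -0.34. The kinase Syk stood at 29.1 CPM against 0.742 CPM, its partner phospholipase Plcg2 at 217 CPM (186 to 251) against 1.79 CPM, and the adaptor Lat2 at 27.9 CPM against 4.41 CPM. The T cell counterparts were on the other side: Lck stood at 60.6 CPM against 331 CPM and Plcg1 at 6.06 CPM against 97.7 CPM. The zeta chain Cd247 stood at 44.9 CPM against 1265 CPM. Zap70, the T cell relative of Syk, was called neither way, at 63.1 CPM against 84 CPM. B cells use Syk and Plcg2 too, and the B cell list without Cd79a stood at 212 CPM (182 to 246), against 161 CPM in CD3-positive and 24845 CPM in B cell barcodes. In that list Ebf1 and Sdc1 were called higher, at 50.9 CPM against 0.87 CPM and 15.8 CPM against 0.747 CPM, and Ms4a1 and Pax5 had 0 UMIs. Its part in the Syk and Plcg2 values was not tested.

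Among transcription factors, 11 of 26 were at least 4-fold higher and 3 lower, with a median log2 ratio of 0.55. Besides Id2, Rora, Tbx21 and Eomes they included Tox2 (181 CPM against 4.32 CPM), Zbtb16, the innate-like factor PLZF (60.6 CPM against 2.03 CPM), Bhlhe40 (291 CPM against 21.3 CPM) and Runx3 (797 CPM against 127 CPM). Id3, a relative of Id2, had 1 UMI, against 47.1 CPM. Of 16 homing genes, the chemokine receptor Cxcr6 (207 CPM against 16.5 CPM), Cd44 (668 CPM against 51.0 CPM), Itgb3 and Ccr6 were higher. The egress receptor S1pr1, a gene of recirculating cells, was lower, at 86.1 CPM against 525 CPM. Of 13 cytokine receptors outside the rule, 5 were higher and none lower, among them the IL-18 receptor chains Il18r1 (602 CPM against 129 CPM) and Il18rap (289 CPM against 16.4 CPM).

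Cytokine transcripts were few and uneven. Of 20 cytokines and ligands, 17 had enough UMIs, Il22, Tnf, Csf2 and Xcl1 were called higher, and Il2 and Ccl4 lower. Ccl4 had 2 UMIs, against 18.3 CPM, and Il2 had 0, against 5.09 CPM, which makes it at least 1.4-fold lower. Il22 stood at 72.8 CPM (55.5 to 93.7) against 0.133 CPM, but 1 barcode held 41.7% of its UMIs, and it came from 1, 1, 4, 2 and 0 barcodes (Ga, Gb, Gc, Ha, Hb). Csf2 stood at 142 CPM (117 to 170.1) against 1.69 CPM, and 1 barcode held 28.2% of its UMIs. Tnf was held by 24 of 61 at 80.1 CPM against 12.3 CPM. Ifng had 7 UMIs, all in 1 barcode.

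MHC class II genes, which LTi-like ILC3 can express, were high in part of the barcodes. The invariant chain Cd74 was held by 25 of 61, or 24 of the 59 with Klrb1b, and 1 barcode held 21.2% of its UMIs. Its level was 634 CPM (581 to 691), against 13.2 CPM in CD3-positive barcodes. H2-Aa, H2-Ab1 and H2-Eb1 stood at 169, 142 and 164 CPM, against 4.37, 2.73 and 3.31 CPM, and 4 of 6 class II genes were called higher. The 6 genes together summed to 1149.9 CPM, against 48.6 CPM in CD3-positive and 6384 CPM in B cell barcodes. Cd74 was held by 21 of 34 barcodes with Il23r, against 4 of 27 without, and the class II transactivator Ciita by 6 of 34 and none of 27. By library, the Cd74 level was 1105 (Ga), 249.7 (Gb), 633 (Gc), 1039 (Ha) and 268 (Hb) CPM, against 1.72 to 20.1 CPM in CD3-positive barcodes. Single barcodes carried much of these levels. With Il23r, 1 barcode held 111 of 120 Cd74 UMIs for Ha, 37 of 49 for Hb, 35 of 80 for Gc and 85 of 155 for Ga. Without Il23r, 1 barcode held 63 of 70 for Ga. For Gb, the barcode above with genes of migratory dendritic cells held 36 of the 41 UMIs without Il23r. The part of RNA from other presenting cells in these values was not tested. The conventional dendritic list summed to 936 CPM in innate lymphoid barcodes, against 31.8 CPM in CD3-positive barcodes. Of its genes, Flt3, Zbtb46, H2-Ab1, Cd74 and Fscn1 were called higher, the Flt3 and Fscn1 UMIs all in the single Gb barcode above, while Clec9a and Cd209a had 0 UMIs.

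Among CD3-positive cells, the type 17 gamma-delta T cells share Il23r with ILC3, and 89 such barcodes were taken as those that held at least 2 of 4 marker genes, Cd163l1, Il23r and Il17a among them. These choices used CD3 and Il23r, so the comparison is again description. Of 8134 genes with at least 30 UMIs in both together, 3.54% were at least 4-fold higher and 1.84% at least 4-fold lower in innate lymphoid barcodes, with a median log2 ratio of 0.03. S100a6 stood at 1482 CPM (1400.2 to 1568) in innate lymphoid barcodes and 1418 CPM in type 17 gamma-delta barcodes, and Il1r1 at 102 CPM and 165 CPM. Tmem176a and Tmem176b, both high in type 17 lymphocytes, stood at 209.8 and 218 CPM, against 291 and 293 CPM. Fcer1g stood at 1168 CPM against 51.3 CPM, Kit at 268 CPM against 10.3 CPM and Tnfsf4 at 205 CPM against 11.0 CPM. The gamma-delta program ran the other way: of 13 of its genes with enough UMIs, 10 were at least 4-fold lower in innate lymphoid barcodes. Both counts include Cd163l1, so the choice of the gamma-delta barcodes fixed part of them. Tcrg-C2 had 0 UMIs, against 94.7 CPM, as had Cd163l1, which chose the gamma-delta barcodes, against 674 CPM, and the factor Sox13 had 2 UMIs, against 88.4 CPM. The delta segment Trdv4 stood at 27.9 CPM (17.7 to 41.9), against 30 CPM. The NK list summed to 1419 CPM (1339 to 1503) in innate lymphoid barcodes, against 953 CPM in 1458 CD3-positive barcodes with Trdc and Klrd1; Klrd1 is in that list, so the choice fixes part of the 953 CPM.

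Levels of a few cytokine-response genes in the Il23r set varied between libraries more than their counting intervals. These genes were chosen after their values were seen, and the libraries are unassigned. Cish, a feedback inhibitor induced by IL-2 family cytokines through STAT5, was held by 7 of 7, 2 of 6, 7 of 7, 2 of 6 and 3 of 8 barcodes (Ga, Gb, Gc, Ha, Hb). Its level was 304 CPM (interval 200.2 to 442) for Ga, 52.3 (interval 17 to 122) for Gb and 367 (interval 256 to 511) for Gc. It was 32.3 CPM (interval 6.66 to 94.4) for Ha and 21.2 (interval 4.37 to 61.9) for Hb. In CD3-positive barcodes it was 19.2, 2.27, 19.5, 3.7 and 2.66 CPM in the same order. Ga and Gc were the highest libraries in both populations.

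Socs1, a feedback inhibitor of cytokine receptors, was held by 6 of 7 barcodes of the Il23r set for Ga, 1 of 6 for Gb, 6 of 7 for Gc, 1 of 6 for Ha and 1 of 8 for Hb. Its level ran 461, 52.3, 451, 10.8 and 14.1 CPM across these libraries, while CD3-positive barcodes stood between 38.9 and 67.9 CPM. Csf2 was held by 6 of 7, 2 of 6, 7 of 7, 2 of 6 and 4 of 8 barcodes in that order, at 427, 20.9, 524, 75.4 and 77.7 CPM. A single Gc barcode held 33 of the 50 Csf2 UMIs of its library. The rule gene Il2ra stood at 956, 606, 1940.3, 334 and 268 CPM in the same set and order, and a single Gb barcode held 44 of the 58 UMIs there. The median UMIs of the Il23r set were 13323, 15092, 15869, 14876 and 17980.5, and the part of depth in these values was not tested.

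Activated CD4 T cells are a known source of IL-2, as background, and the Il2 level of CD3-positive barcodes was 6.79, 0.547, 10.1, 1.35 and 1.32 CPM in the order used above. Its part in the innate lymphoid values was not tested.

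**Figure D5:**
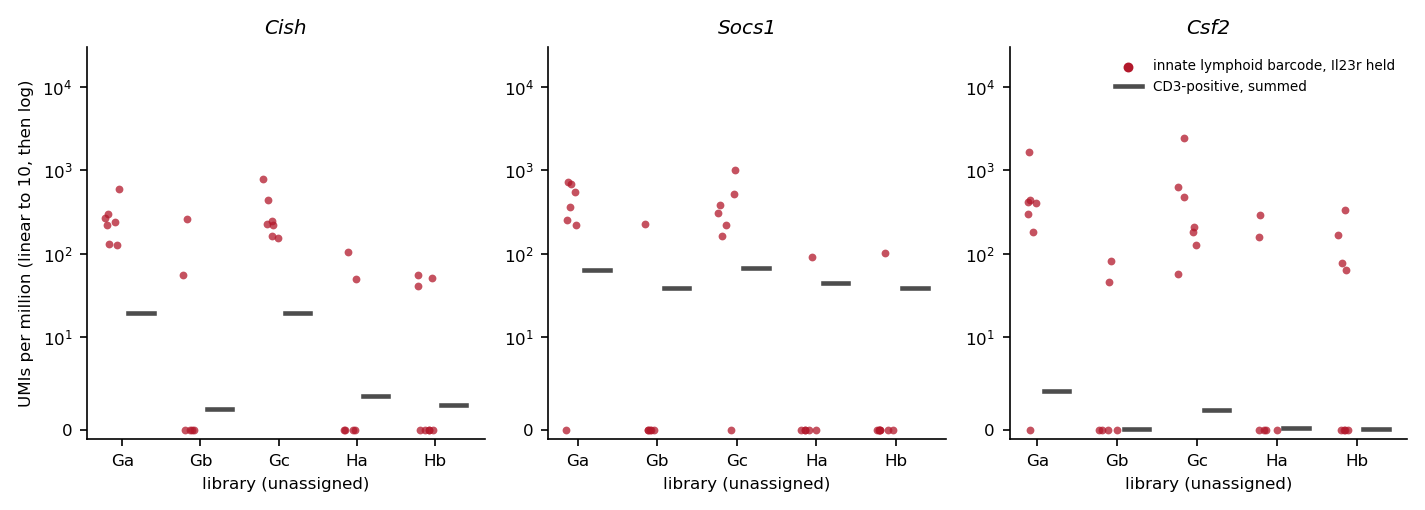
CPM of Cish, Socs1 and Csf2 by unassigned library, for each innate lymphoid barcode with an Il23r UMI (red points) beside the summed level in CD3-positive barcodes (grey lines); the axis is linear to 10 and logarithmic above. In Ga and Gc all 7 barcodes hold Cish and 6 of 7 hold Socs1, whereas most barcodes of Gb, Ha and Hb lie at 0 for both genes.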

How the data were processed

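Single-cell RNA of 5 mouse samples was read with the 10x 5' kit. The authors deposited 2 aggregated matrices of UMI counts over 32285 genes. Cell Ranger 6.0.0 and mm10 are named in the submitters' processing notes, and cellranger 7.1.0 in the file headers. Depth equalisation at aggregation and the counting of intronic reads: not given in the sources used here. Library totals were 27339447 to 61279131 UMIs. Counts were summed over barcodes in Python 3.11.15 (numpy 2.4.6, scipy 1.17.1, pandas 2.3.3), scaled to CPM and given exact Poisson or Clopper-Pearson 95% intervals, which cover counting error only. Labels give 1 sample per group, so no test was made and no p-value computed. Shares were also read after thinning each barcode to 3000 UMIs. No doublet caller was run; barcodes above 2 times their library's median UMIs were left out as an alternative. CD3-positive barcodes with at least 4 of the 5 rule genes numbered 22, with a median of 19562 UMIs.

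Named genes are the 30 highest and 10 lowest ratios without rule, receptor segment, mitochondrial and ribosomal protein genes; the highest had to be held by at least 20% of the barcodes and in at least 3 libraries. The marker and function lists were named in addition. The 61 barcodes and the lists were chosen with earlier results of these data known, and the division by Il23r after seeing the values. Gene coordinates come from the GENCODE annotation of GRCm38, the same assembly as mm10, matched by Ensembl ID. The ratio procedure was tested on simulated data. Some genes of the lists are not reported here.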

Additional observations from a re-analysis of the deposited data

How the results depend on the processing

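The count of barcodes was 61, and ranged from 45 to 53 when a library was left out in turn. It was 155 with at least 1 of the 5 rule genes, 0 when at most 1 Trac UMI was allowed, 34 with Il23r, 27 without Il23r, and between 47 and 76 under the other barcode limits. Genes at least 4-fold higher numbered 2067, and 2259 to 2479 without 1 library. They numbered 3409 with 1 UMI added, 10907 with no UMI minimum and 3801 in the barcodes without Il23r. With at least 10 UMIs in innate lymphoid barcodes they numbered 880. The same UMI count was added to both populations, whose totals were 824451 (innate lymphoid) and 187378258 UMIs (CD3-positive). With 1 UMI added, no UMI minimum or fewer barcodes, a gene with 0 UMIs in innate lymphoid barcodes could therefore be called higher. How many such genes these larger counts hold was not tested. Genes at least 4-fold lower numbered 611, and 592 to 626 without 1 library, 373 with 1 UMI added and 406 without Il23r. NK genes held by at least 20% of barcodes numbered 6, 6 without any 1 library, 11 without Il23r and 3 with Il23r. ILC3 and LTi genes numbered 12, 13 to 15 without 1 library, 7 with at least 1 rule gene and 7 without Il23r. As a share of CD3-negative barcodes, the population made up 18.2% (Ga), 31.1% (Gb), 10.9% (Gc), 20.5% (Ha) and 32.4% (Hb). Of 840 ratios of named genes under alternatives, 689 stayed within the counting interval, 150 moved outside it in the same direction and 1 changed sign: Gm47782 reached a log2 ratio of 0.21 with at least 1 rule gene. The cause of these moves was not tested, apart from the fewer barcodes or UMIs that a setting itself brings. With 61 barcodes, a gene at 0 UMIs is bounded at 3 UMIs over all of them. No paired analysis was possible because each group has 1 sample and no library is assigned to a group.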

Other observations

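Cell cycle genes were sparse in innate lymphoid barcodes. Mki67 had 32 UMIs in 6 of 61 barcodes, of which 1 Ga barcode held 75%, and Cdk1 had 0. The hemoglobin gene Hba-a1 stood at 218 CPM, against 119.6 CPM in CD3-positive barcodes, and 1 Hb barcode held 52.2% of its UMIs. Carbonic anhydrase Car2, an erythroid gene, was held by 32 of 61 at 155 CPM (129.5 to 185), against 11.8 CPM, while Hbb-bs stood at 31.5 CPM against 279 CPM. The homeobox gene Meis1 was held by 25 of 61 at 84.9 CPM (66.2 to 107), against 3.33 CPM. The B cell factor Ebf1 was held by 8 of 61 at 50.9 CPM against 0.87 CPM, with Cd79b at 2 UMIs. The 61 barcodes held no UMI of Il13, Il5, Mcpt8, Epcam or Cdh5.

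Marker lists of other cell types differed in level in the 61 barcodes. The fibroblast list summed to 4.85 CPM in innate lymphoid barcodes, of which 4 of 61 held any UMI of it, against 8.05 CPM in CD3-positive barcodes. The neutrophil list summed to 7.28 CPM against 3.44 CPM, with S100a8, S100a9, Elane, Prtn3 and Mpo at 0. The basophil and mast cell list summed to 17 CPM against 13 CPM, with Mcpt8, Fcer1a and Ms4a2 at 0. The macrophage list summed to 37.6 CPM against 6.54 CPM. The plasmacytoid dendritic list summed to 386 CPM against 165 CPM, with Siglech and Ly6d at 0. The conventional dendritic list summed to 936 CPM against 31.8 CPM, with Cd74 and H2-Ab1 among its genes.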
